A study of Mus musculus with 42 samples.

Results

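The replication-dependent histone genes encode the bulk histones H1, H2A, H2B, H3 and H4 that package newly made DNA. They were selected by symbol alone, as the rows named H1f1 to H1f5, H2ac, H2bc, H3c or H4c (or their older Hist names). This gave 41 of the 18825 genes in the count table of experiment 1 and 52 of the 19866 in that of experiment 2, and all 41 genes of experiment 1 were also in experiment 2. By class, experiment 1 held 4 H1, 13 H2A, 11 H2B, 10 H3 and 3 H4 genes, and experiment 2 held 5, 14, 13, 12 and 8. The genes lie in 2 clusters of the mouse genome (RefSeq, GRCm38.p6). The cluster on chromosome 13 holds 45 of the 52 genes within 2.05 megabases, and that on chromosome 3 holds the other 7 within 0.0481 megabases.

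RNA bound to the silencing adaptor Tnrc6a was sequenced from mouse embryonic stem cells by immunoprecipitation through an HA tag (RIP-seq), next to the lysate RNA (input). All groups come from mES 129S6/SvEvTac cells with the yGlob GFP_5xT71BS reporter, and the growth protocol gives the line a stable FLAG-Cas9::T2A::Blasticidin transgene. Untagged cells carry nothing further and serve as the background of the beads. Tagged cells express HA-AVI-Tnrc6a, Trim71KO cells are HA-AVI-Tnrc6a and Trim71-/-, and Ago2KO cells, used in experiment 2 only, are HA-AVI-Tnrc6a and Ago2-/-. Each of the 14 groups has 3 libraries, from cells grown in triplicate dishes. Whether a genotype is 1 clone is not given in the sources used here, and p-values measure only the spread between such dishes. The comparisons ask which RNAs associate with Tnrc6a and whether this depends on Trim71, an RNA-binding protein of stem cells, or on Ago2, an Argonaute protein that carries microRNAs.

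Messenger RNAs of these genes are the only ones of animal cells that normally end in a conserved stem-loop instead of a poly(A) tail. The stem-loop is bound by Slbp, and the mRNAs are made and translated during S phase and degraded when DNA synthesis stops. Tnrc6 proteins recruit deadenylases, which shorten poly(A) tails, to the targets of microRNAs. Some histone genes can also give polyadenylated transcripts, and counts per gene do not separate the 2 forms.

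A promoter window was printed for the genes on which the results turn. RefSeq (GRCm38.p6) had 47 windows, of 250 bases before to 50 bases after the start, for 46 of the 52 genes. H1f2 is shown because it was the gene recovered with Tnrc6a and its input level moved with genotype. H2bc23 and H2bc24 are shown because both were called higher in Trim71KO input of experiment 1, though not against tagged input in experiment 2. The window of H1f2 is chr13:23738557-23738856 on the plus strand. The capitals mark the H1 box AAACACA, whose first base is 112 bases before the start, and a CCAAT box.
H1f2: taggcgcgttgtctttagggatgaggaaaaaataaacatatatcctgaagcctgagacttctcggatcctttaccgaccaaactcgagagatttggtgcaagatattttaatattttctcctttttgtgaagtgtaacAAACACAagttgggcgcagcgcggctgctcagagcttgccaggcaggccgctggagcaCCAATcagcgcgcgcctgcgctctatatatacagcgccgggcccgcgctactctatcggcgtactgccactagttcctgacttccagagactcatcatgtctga
The windows of H2bc23, chr13:21810150-21810449 on the minus strand, and H2bc24, chr13:21833493-21833792 on the plus strand, were 100% identical. The median identity over the 1035 pairs of windows was 25.7%, and the next highest pair reached 40.3%. The capitals mark 3 CCAAT boxes, of which 2 read on the opposite strand as ATTGG.
H2bc23 and H2bc24: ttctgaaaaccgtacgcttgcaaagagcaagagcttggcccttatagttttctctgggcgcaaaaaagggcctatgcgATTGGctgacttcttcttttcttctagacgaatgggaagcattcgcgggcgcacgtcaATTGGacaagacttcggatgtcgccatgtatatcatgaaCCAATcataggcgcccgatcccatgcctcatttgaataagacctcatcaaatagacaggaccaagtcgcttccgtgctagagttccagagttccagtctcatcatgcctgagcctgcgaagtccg

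Both strands of all windows were searched for 4 motifs, none of which contains another. CCAAT was present in 89.4% of the histone windows and 37.4% of all 32851 promoter windows. It was in every H1, H2A, H2B and H3 window and in 2 of 7 H4 windows. TATAAA was in 51.1% of the histone windows against 13.6% of all windows. The octamer ATTTGCAT was in 17.0% against 1.74%, in 4 of 13 H2A and 4 of 12 H2B windows. The H1 box was in 4 of 5 H1 windows against 7.18% of all windows. These matches describe the letters in the windows and were not tied to any measured change.

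The histone genes were weakly represented in these libraries, which the labels' protocols describe as stranded total RNA. How fully mRNAs without a poly(A) tail were captured was not tested, so the values are levels in the libraries only. Their reads summed to between 549 and 1341 counts per library in experiment 1, or 0.00361% to 0.00664% of all counts, and to between 1244 and 2206 in experiment 2, or 0.00654% to 0.0127%. The total depth was 12587257 to 23657840 counts in experiment 1 and 16296447 to 21026552 in experiment 2. Levels are counts-per-million values (CPM) on library sizes after normalization. The median histone gene had a mean of 0.722 CPM in experiment 1 and 0.833 CPM in experiment 2, where the median over all genes was 13.9 and 12.2 CPM. The linker histone gene H1f2 and the core histone gene H2bc4 stood out, and together they took 20.9% to 74.5% of the histone counts of a library in experiment 1 and 36.3% to 52.3% in experiment 2. Per kilobase, the highest gene of each class was H1f2 at 6.92 and 9.53 CPM per kilobase in experiments 1 and 2, H2ac24 at 2.28 and 2.38, H2bc4 at 7.99 and 19.5, H3c10 at 2.14 in experiment 1 and H3c14 at 2.39 in experiment 2, and H4c9 at 1.70 and 2.74. Lengths are those of the deposited tables, which exceed the RefSeq span of some of these single-exon genes (1560 against 725 bases for H1f2).

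**Figure D1:**
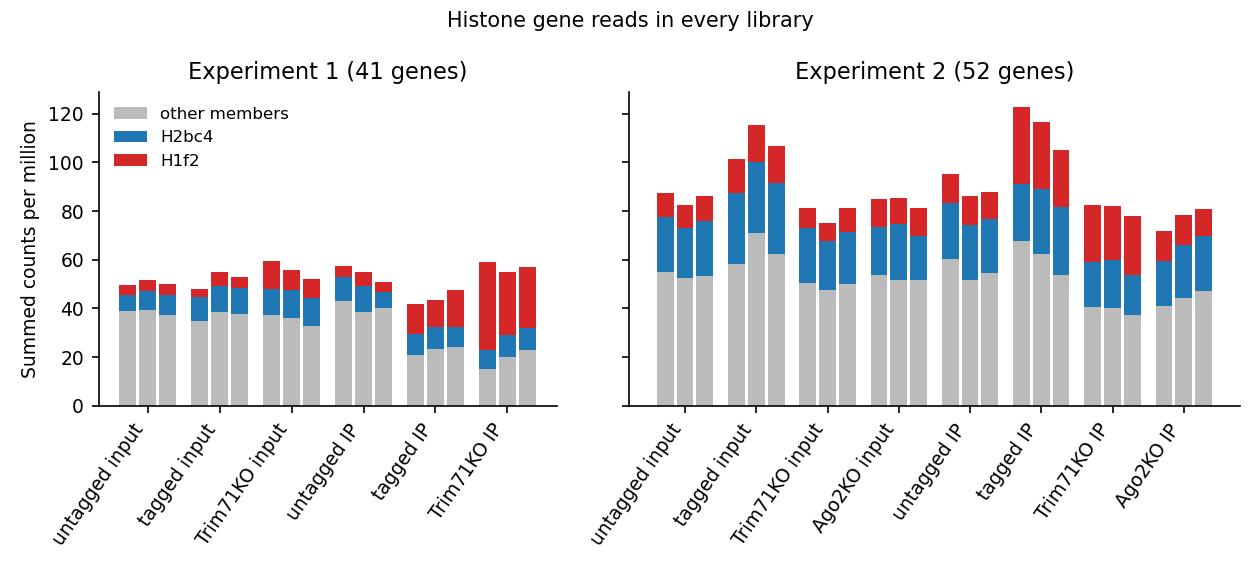
Summed level of the histone genes in each library, in CPM on the y axis, with a bar for each of the 3 libraries of a group and colours for H1f2, H2bc4 and the other genes. In experiment 1 the grey share is lower in tagged IP (mean 22.8) and Trim71KO IP (19.4) than in untagged IP (40.6), while the H1f2 share is larger.

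Tnrc6a RNA itself had an IP level 294-fold and 206-fold over input in tagged cells of experiments 1 and 2, against 0.907-fold and 0.863-fold in untagged cells. Ago2 fell by 1.12 on the log2 scale (SE 0.10, edgeR adjusted p 2.52e-08) in Ago2KO input. Trim71 RNA was not lower in input of the libraries labelled Trim71KO (log2 change 0.23 and 0.42), so RNA level does not check that label and directions below refer to libraries so labelled. Embryonic stem cell markers were present, with Pou5f1 at 1606 CPM and Nanog at 762 CPM in the median input library of experiment 1. Primitive endoderm markers were low and fell in Trim71KO input, 5 of 6 in experiment 1 (summed level 49.5 to 61.5 CPM in tagged and 11.1 to 12.7 in Trim71KO input) and 4 of 5 in experiment 2 (17.1 to 18.2 and 6.54 to 8.39). They summed to 7.88 to 9.44 CPM in Ago2KO input, where 2 of 5 were called lower. Of the fibroblast markers, Col1a2, Col3a1 and Postn were not among the rows, and the other 3 summed to 32.8 to 35.4 CPM in tagged and 59.0 to 63.5 CPM in Trim71KO input of experiment 1, and to 37.6 to 39.0 and 50.7 to 52.9 CPM in experiment 2. Most of this sum was Thy1, which rose in both (1.36 and 0.64), while Pdgfra fell in both (-2.89 and -1.64) and Col1a1 rose in experiment 1 (1.02) and was not called in experiment 2 (-0.35). The part of other cell types in the histone values was not tested, and in lysates fewer cells of a type and less RNA per cell cannot be told apart.

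H1f2 was the histone gene recovered with tagged Tnrc6a in both experiments. In input RNA of experiment 1 the 3 untagged libraries had 3.85, 4.53 and 4.30 CPM of H1f2 and the tagged ones 3.26, 5.91 and 4.89 CPM. In the IP the untagged libraries had 4.59, 5.49 and 3.82 CPM and the tagged ones 12.5, 11.5 and 15.0 CPM. The input groups overlapped, and every tagged IP library was above every untagged one. The fitted IP level was 2.76-fold over input in tagged cells and 1.10-fold in untagged cells. The difference between these ratios, here called tag-specific enrichment, was 1.33 on the log2 scale (SE 0.30, edgeR adjusted p 0.000564).

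In experiment 2 H1f2 was 9.90, 9.37 and 10.5 CPM in untagged input, and 13.96, 15.4 and 15.4 CPM in tagged input. The IP libraries had 11.8, 12.2 and 11.3 CPM without the tag and 31.5, 27.6 and 23.5 CPM with it. Tagged libraries were thus above untagged ones in both fractions, by more in the IP. The fitted ratio of IP to input was 1.84-fold in tagged and 1.19-fold in untagged cells, a tag-specific enrichment of 0.63 (SE 0.15, edgeR adjusted p 0.00177). The enrichment in experiment 1 exceeded that in experiment 2 by 0.80 (SE 0.33, edgeR adjusted p 0.0666), which did not pass the threshold of 0.05.

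**Figure D2:**
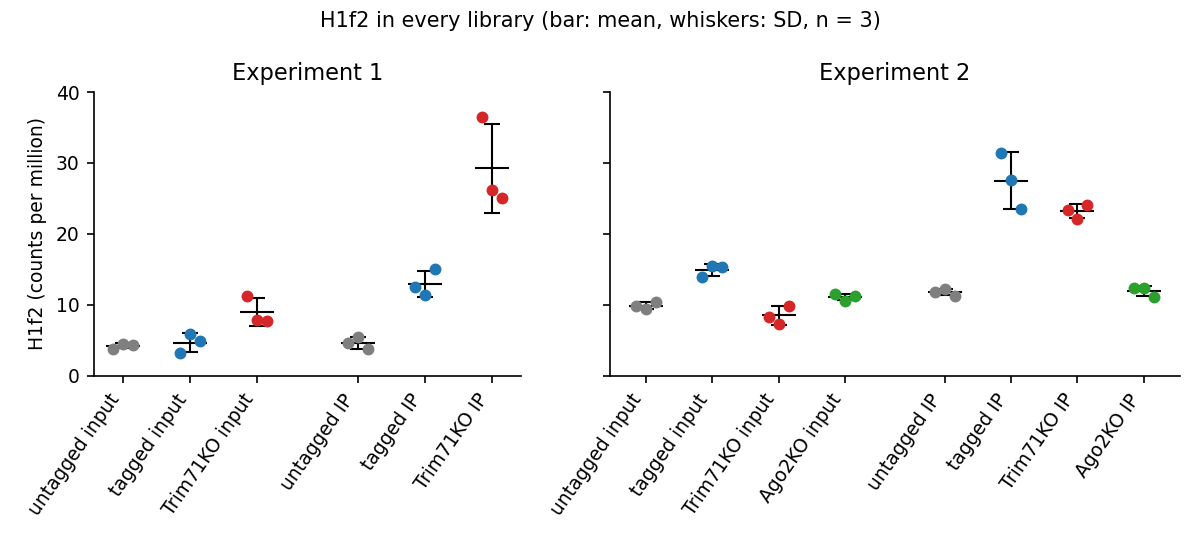
H1f2 in CPM (y axis) for each library, by genotype and fraction, with the mean and SD of 3 libraries. Tagged IP libraries lie above untagged IP libraries in both experiments, and the 3 Ago2KO IP libraries (11.1 to 12.4) lie beside those of untagged IP (11.3 to 12.2).

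No other histone gene was called as enriched with the tag in either experiment. Their median level was 0.722 CPM in experiment 1 and 0.833 CPM in experiment 2. Data were simulated for Trim71-dependent enrichment, with log2 changes of 1 or 1.5 in either direction, and not for tag-specific enrichment. Of 200 changed genes, 131 and 152 were recovered in experiments 1 and 2. Of those under 2 CPM, 2 of 48 and 6 of 37 were. Genes that were not called are thus not shown to lack enrichment. In experiment 1, 12 of 41 genes were called (29.3%), where 56.9% of all 18772 genes tested were called. H1f2 was the one called higher, as were 28.1% of all genes, and 11 were called lower, as were 28.8% of all genes. The median tag-specific enrichment of the 41 genes was -0.59, against -0.10 over all genes. In experiment 2, 2 of 52 genes were called (3.85%), where 27.7% of all 19778 genes tested were, 18.9% higher and 8.77% lower, and the median was -0.06 against -0.03. Only H1f2 was called in both experiments.

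The 11 genes lower in experiment 1 were core histone genes. Genes with a mean below 4 CPM, here and below, were named after their values were seen. Among H2A genes, which with H2B form the outer dimers of the nucleosome, 5 of 13 were called lower, namely H2ac22 (-2.05), H2ac11 (-2.04), H2ac7 (-1.82), H2ac8 (-1.65) and H2ac4 (-1.60). Of the H2B genes 5 of 11 were called lower, namely H2bc8 (-2.39), H2bc22 (-1.86), H2bc12 (-1.68), H2bc24 (-1.65) and H2bc4 (-0.50). None of the 10 H3 genes and 1 of the 3 H4 genes, H4c9 (-1.05), was called. H3 and H4 form the central tetramer of the nucleosome. Over all genes tested, 28.8% were called lower. The median of each class, over called and uncalled genes, was -1.09 for H2A, -0.59 for H2B, -0.31 for H3 and -1.59 for H4. Whether the classes differ was not tested.

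H2bc8 shows the size of the counts behind these calls. Its input levels in experiment 1 were 0.74, 1.06 and 0.76 CPM in untagged and 0.68, 1.15 and 1.40 CPM in tagged cells. Its IP levels were 1.33, 1.27 and 1.27 CPM in untagged and 0.46, 0.31 and 0.15 CPM in tagged cells, the last from 6, 4 and 2 counts. The IP groups did not overlap (SE 0.57, edgeR adjusted p 0.000907). In experiment 2 the same gene had 1.60, 1.00 and 1.02 CPM in untagged IP and 1.28, 1.34 and 1.16 CPM in tagged IP, which overlapped, and its enrichment was -0.60 (SE 0.43, edgeR adjusted p 0.327).

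H2bc4, the most abundant of the core histone genes, showed a small shift. In experiment 1 it had 9.91, 10.5 and 10.3 CPM in tagged input and 8.22, 8.92 and 8.44 CPM in tagged IP, and 6.62, 7.95 and 8.45 CPM in untagged input and 9.62, 10.8 and 6.77 CPM in untagged IP. The untagged libraries overlapped between fractions. The enrichment of -0.50 (SE 0.21, edgeR adjusted p 0.0417) was not called with 5 of the 7 other settings run over all libraries. In experiment 2 it was -0.22 (SE 0.13, edgeR adjusted p 0.221).

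Summed without H1f2 and H2bc4, the histone genes of experiment 1 reached 40.6 ± 2.34 CPM in untagged IP, 22.8 ± 1.51 CPM in tagged IP and 19.4 ± 3.98 CPM in Trim71KO IP (SD, n = 3). Input libraries of the 3 genotypes lay between 32.6 and 39.2 CPM. Every library of the IP groups with the tag was below every library of the other groups. In experiment 2 the tagged IP libraries held 53.9 to 67.9 CPM and the untagged ones 51.7 to 60.3 CPM, which overlapped. Trim71KO IP held 37.2 to 40.8 CPM and Ago2KO IP 41.01 to 46.99 CPM, and all of these libraries were below every untagged and tagged IP library and every input library of experiment 2.

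The difference between experiments was tested for the 41 genes in both tables. The tag-specific enrichment was lower in experiment 1 for 4 of them, H2ac11 (-3.04), H2bc22 (-2.22), H2bc24 (-1.54) and H2bc12 (-1.43), and higher for 0, where 28.5% of all 18620 genes tested differed and 11.1% were lower. Calls of H2bc12 and H2bc22 were lost in 12 and 10 of the 24 fits that left out a library, and 2 genes were called without replicate 1 of untagged IP in experiment 1 or without replicate 2 of untagged or tagged IP in experiment 2. The other genes named lower in experiment 1 were not shown to differ between experiments. In experiment 2 the gene called lower was H2bc21, with 5.24, 4.20 and 4.89 CPM in untagged IP and 3.09, 3.46 and 3.79 CPM in tagged IP, against 3.55, 4.10 and 4.04 and 4.24, 5.28 and 4.21 CPM in input. The IP groups did not overlap (enrichment -0.69, SE 0.25, edgeR adjusted p 0.0362), and the call was lost in 6 of 12 fits that left out a library (edgeR adjusted p up to 0.107, without replicate 2 of tagged input).

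**Figure D3:**
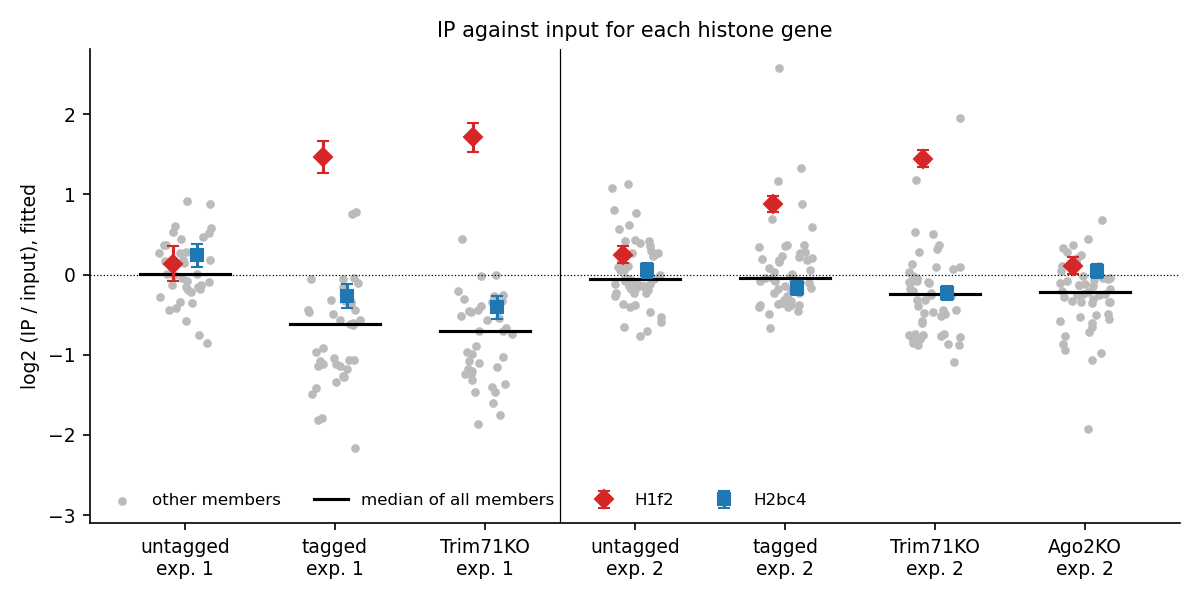
Fitted log2 ratio of IP to input (y axis) of each histone gene by genotype and experiment, with H1f2 and H2bc4 shown with their SE and the median of all histone genes as a line. H1f2 stands at 1.46 and 1.71 in tagged and Trim71KO cells of experiment 1, where the medians are -0.61 and -0.70, and at 0.11 in Ago2KO cells of experiment 2.

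In Ago2KO cells H1f2 was recovered less with the tag than in tagged cells. H1f2 was 11.5, 10.6 and 11.2 CPM in Ago2KO input and 12.4, 12.4 and 11.1 CPM in Ago2KO IP. These 2 groups overlapped, and all 3 IP libraries lay below the 3 tagged IP libraries. The ratio of IP to input was 1.08-fold, and the enrichment was lower than in tagged cells by 0.77 on the log2 scale (log2 change -0.77, SE 0.15, edgeR adjusted p 0.00152). This call was kept under every setting run, with values from -0.90 to -0.67 when a library was left out. Ago2KO and untagged cells share no library, and their ratios of 1.08-fold and 1.19-fold were not tested against each other.

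Among the other histone genes, H2bc3 was the only one called for Ago2-dependent enrichment, at very low counts. It had 3, 0 and 3 counts in Ago2KO IP against 8, 14 and 5 in tagged IP, and 5, 13 and 9 counts in Ago2KO input against 2, 6 and 5 in tagged input. With Ago2KO IP set to a floor of 3 counts per library, the enrichment from group means was 6.63-fold lower in Ago2KO cells. The other groups were not set to a floor, so this is not a lower bound. The fitted change was called (edgeR adjusted p 0.0375), and the call was lost in 8 of 12 fits that left out a library (edgeR adjusted p up to 0.144). The count of 2 of 52 genes (3.85%) stands beside 4.16% of all genes called, or 3.77% called lower. Negative Ago2-dependent values were seen for 35 of the 52 genes (median -0.18 against 0.00 over all genes), including 5 of 5 H1 genes (median -0.44, H1f2 alone called) and 7 of 8 H4 genes (median -0.79, none called). Some H4 genes had few counts in Ago2KO IP, such as 2, 2 and 3 for H4c3 and 7, 0 and 8 for H4c14. H4c9 had 34, 32 and 36. The signs of uncalled genes were not tested as a set.

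In Trim71KO cells H1f2 remained enriched over input. Experiment 1 gave 11.3, 7.88 and 7.79 CPM in Trim71KO input and 36.4, 26.1 and 25.1 CPM in Trim71KO IP, so that both fractions lay above the tagged libraries without overlap. The ratio of IP to input was 3.27-fold, and it differed from that of tagged cells by 0.25 (SE 0.27, 95% interval -0.29 to 0.78, edgeR adjusted p 0.747). No histone gene was called for Trim71-dependent enrichment in experiment 1 by edgeR or DESeq2 (2 had an unadjusted p under 0.05), where 3.74% of all genes were called. The median was -0.04 both for the histone genes and for all genes.

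Experiment 2 gave 8.36, 7.28 and 9.91 CPM of H1f2 in Trim71KO input and 23.4, 22.1 and 24.04 CPM in Trim71KO IP. The input libraries lay below all tagged input libraries, and the IP libraries overlapped with tagged IP. The ratio was 2.72-fold, above that of tagged cells by 0.56 (SE 0.15, edgeR adjusted p 0.0472). H1f2 was the 1 of 52 genes called, where 1.49% of all genes were called and 0.753% were higher. The median of the 52 genes was -0.27 against 0.01 over all genes, with 39 of 52 negative, opposite in sign to H1f2. The call was lost in 10 of the 12 fits that left out a library (edgeR adjusted p up to 0.169, without replicate 2 of Trim71KO input) and was kept without replicate 3 of Trim71KO input or replicate 1 of tagged IP. The change did not differ between experiments beyond its error (difference -0.33, SE 0.31, edgeR adjusted p 0.640), and 0 of 41 histone genes did (4 with an unadjusted p under 0.05), where 0.0967% of all genes were called.

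The 2 knockouts differed from each other in the enrichment of H1f2 by 1.33 (SE 0.15, edgeR adjusted p 7.25e-07), with Trim71KO above Ago2KO. H1f2 was the 1 of 52 histone genes called, where 11.8% of all genes were called and 8.94% were higher. When a library was left out, its value lay between 1.23 and 1.46.

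In input RNA the tagged cells of experiment 1 did not differ from untagged cells in any histone gene by edgeR (0 of 41 called, 5 with an unadjusted p under 0.05, 1 called by DESeq2), where 10.6% of all genes were called. In experiment 2, 2 of 52 genes were called, both higher in tagged cells, where 1.39% of all genes were called and 0.809% were higher. H1f2 was higher by 0.59 (SE 0.11, edgeR adjusted p 0.00231). H2bc4 had 22.3, 20.7 and 22.5 CPM in untagged and 29.1, 29.2 and 28.9 CPM in tagged input, without overlap (0.42, SE 0.09, edgeR adjusted p 0.0118), and its call was lost without replicate 2 of untagged input (edgeR adjusted p 0.0801). The median over the 52 genes was 0.23 in this comparison against -0.01 over all genes, and 0.12 without replicate 2 of tagged input.

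Input levels in Trim71KO cells moved in opposite directions in the 2 experiments for H1f2. In experiment 1 it rose by 0.92 (SE 0.20, edgeR adjusted p 0.00116) and in experiment 2 it fell by 0.81 (SE 0.11, edgeR adjusted p 2.36e-06). The values of each library, given above, did not overlap between tagged and Trim71KO input in either experiment. In experiment 2 the Trim71KO input libraries overlapped with untagged input (9.90, 9.37 and 10.5 CPM), and in experiment 1 they lay above it. The difference between experiments was 1.73 (SE 0.23, edgeR adjusted p 9.79e-07).

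In experiment 1, 3 of 41 genes were called, where 34.0% of all genes were, and all 3 were higher in Trim71KO input, as were 16.5% of all genes. Beside H1f2 these were H2bc23 and H2bc24, the genes whose promoter windows are identical. H2bc24 had 1.97, 1.72 and 1.66 CPM in tagged and 2.61, 2.77 and 2.7004 CPM in Trim71KO input, without overlap (0.60, SE 0.21, edgeR adjusted p 0.0322). H2bc23 had 1.29, 1.26 and 1.83 CPM in tagged and 2.73, 3.44 and 2.52 CPM in Trim71KO input, again without overlap (0.98, SE 0.36, edgeR adjusted p 0.0390). H2bc24 was called without replicate 1 of tagged input and H2bc23 without replicate 3 of tagged input, and both calls were lost in the other 5 fits that left out a library (edgeR adjusted p up to 0.107 and 0.139). Reads of such close copies may have been shared between them in counting. The median of the 41 genes was -0.25 against -0.01 over all genes, and no gene was called lower.

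In experiment 2, 7 of 52 genes were called, where 27.2% of all genes were, and all 7 were lower in Trim71KO input, as were 13.7% of all genes. The median of the 52 genes was -0.31 against -0.01 over all genes, and -0.48 without replicate 1 of Trim71KO input. Without replicate 3 of tagged input or replicate 2 of Trim71KO input 4 genes were called. H2bc4 had 22.6, 19.9 and 21.3 CPM, below all 3 tagged libraries, and fell by 0.45 (SE 0.09, edgeR adjusted p 0.000356). These values overlapped with untagged input (22.3, 20.7 and 22.5 CPM), and Trim71KO was not tested against untagged cells. H2bc23 and H2bc24 were not called against tagged input in experiment 2 (0.31 and 0.11). They were higher than in Ago2KO input, by 0.54 (SE 0.15, edgeR adjusted p 0.00806) and 0.76 (SE 0.21, edgeR adjusted p 0.00702).

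Of the 7 genes lower in Trim71KO input of experiment 2, 4 were from the chromosome 3 cluster. All 7 genes of this cluster had a negative value, from -1.58 to -0.60, with a median of -1.09, where the 45 genes on chromosome 13 had a median of -0.26. H2bc21 had 4.24, 5.28 and 4.21 CPM in tagged and 1.23, 2.00 and 1.37 CPM in Trim71KO input, without overlap (-1.58, SE 0.19, edgeR adjusted p 6.81e-07). H3c14 had 5.08, 6.19 and 6.63 CPM in tagged and 1.72, 2.16 and 3.41 CPM in Trim71KO input, also without overlap (-1.30, SE 0.23, edgeR adjusted p 8.65e-05). Both calls were kept under every setting run.

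The other 2 called genes of the cluster had fewer counts. H3c15 had 1.09, 1.76 and 2.27 CPM in tagged and 1.18, 1.11 and 0.51 CPM in Trim71KO input, which overlapped (-0.87, SE 0.32, edgeR adjusted p 0.0444). H4c14 had 0.69, 1.28 and 0.92 CPM in tagged and 0.49, 0.32 and 0.30 CPM in Trim71KO input, without overlap (-1.35, SE 0.50, edgeR adjusted p 0.0473). These calls were lost in 4 and 5 of 6 fits that left out a library (edgeR adjusted p up to 0.246 and 0.175), and both with the replicate number as a block. The seventh gene, H4c11 on chromosome 13, had 6, 10 and 12 counts in tagged and 2, 0 and 4 in Trim71KO input (-2.14, SE 0.77, edgeR adjusted p 0.0407), and its call was lost in 4 of 6 such fits (edgeR adjusted p up to 0.153).

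Summed over the cluster, chromosome 3 genes reached 13.6 to 17.5 CPM in tagged, 13.1 to 15.7 CPM in untagged, 9.36 to 12.0 CPM in Ago2KO and 6.59 to 7.12 CPM in Trim71KO input of experiment 2. The Trim71KO libraries were below all others and the Ago2KO libraries lay between them and the tagged ones. H2bc21 and H3c14 had the highest levels of the cluster in tagged input, so the sum mainly follows them. The sum was not tested. The 3 genes of the cluster that experiment 1 also measured were not called there. H2bc21 had 2.03, 1.38 and 1.34 CPM in tagged and 0.99, 1.81 and 0.89 CPM in Trim71KO input, and H3c14 had 0.49, 1.49 and 0.70 against 1.39, 1.498 and 1.24 CPM. Both overlapped between groups. H2ac18 had 1, 6 and 4 counts in tagged and 12, 9 and 15 counts in Trim71KO input, without overlap and opposite in sign to experiment 2 (1.44, SE 0.56, edgeR adjusted p 0.0507, against -0.77).

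The Trim71KO input change was higher in experiment 1 than in experiment 2 for 5 of the 41 genes and lower for 0, where 22.8% of all genes differed and 10.6% were higher. Beside H1f2 these were H2ac18 (2.21, SE 0.68), H3c14 (1.91, SE 0.45), H2bc21 (1.24, SE 0.41) and H2bc4 (0.61, SE 0.15), so all 3 chromosome 3 genes in both tables were among them. Of the 3 genes called in experiment 1 and the 7 called in experiment 2, H1f2 was shared.

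**Figure D4:**
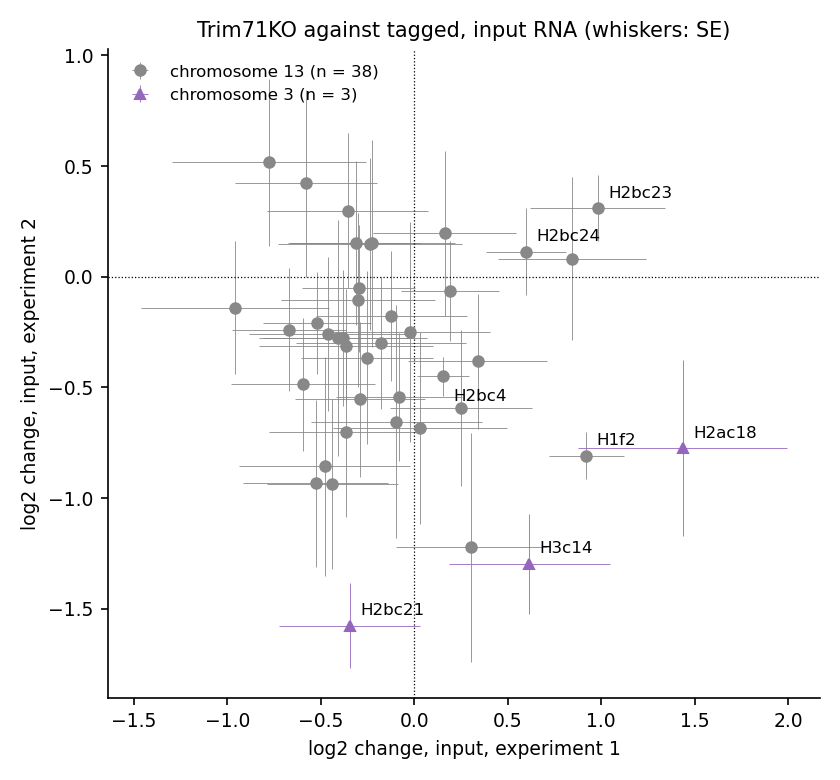
Log2 change of Trim71KO against tagged input in experiment 1 (x axis) and experiment 2 (y axis) for the 41 histone genes in both tables, with SE whiskers and chromosome 3 genes as triangles. H1f2 lies at 0.92 and -0.81, and the 3 chromosome 3 genes lie between -1.58 and -0.77 on the y axis.

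Ago2KO input of experiment 2 was lower than tagged input for 2 of 52 genes, where 6.96% of all genes were called and 2.57% were lower. H2bc4 had 19.8, 22.9 and 18.2 CPM, below all tagged libraries, a fall of 0.52 (SE 0.09, edgeR adjusted p 0.000363). H1f2 fell by 0.43 (SE 0.10, edgeR adjusted p 0.0118), and this call was lost without replicate 2 or 3 of tagged input or replicate 2 of Ago2KO input (edgeR adjusted p 0.0548, 0.0517 and 0.0725). The same tagged input enters the comparisons with untagged and with Trim71KO cells. H2bc4 in untagged input (22.3, 20.7 and 22.5 CPM) overlapped with Ago2KO input, and neither knockout was tested against untagged cells. Trim71KO against Ago2KO input gave 6 of 52 genes called, 2 higher and 4 lower, where 28.4% of all genes were called, 13.2% higher and 15.1% lower. The count was 3 without replicate 1 or 2 of Trim71KO input or replicate 3 of Ago2KO input. The lower ones were H4c11 (-2.15), H2bc21 (-1.14), H3c14 (-0.68) and H1f2 (-0.38). Of these, only the call of H2bc21 was kept under every setting run. H4c11 had 2, 0 and 4 counts in Trim71KO and 4, 12 and 13 in Ago2KO input.

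Of 20 genes of histone mRNA processing and turnover, 6 were higher and 7 lower for tag-specific enrichment in experiment 1, with a median of -0.20, where 28.1% of all genes were higher and 28.8% lower. In experiment 2, 7 were higher and 0 lower, with a median of 0.08, where 18.9% of all genes were higher and 8.77% lower. Eri1, an exonuclease that trims the stem-loop end, was enriched by 3.51 (SE 0.16) and 2.35 (SE 0.12) on the log2 scale. Npat, a coactivator of histone transcription, was enriched by 2.46 (SE 0.21) and 1.30 (SE 0.14), and Lsm11, a part of the particle that cleaves histone pre-mRNA, by 1.21 (SE 0.14) and 1.29 (SE 0.13). Cpsf3, Sympk and Upf1 were among the 7 lower in experiment 1, where the lowest value of the list was -1.23. Eri1 enrichment fell by 1.34 (SE 0.11) in Ago2KO cells, and 2 of the 20 genes were lower there, where 3.77% of all genes were. In Trim71KO cells of experiment 1, 3 of the 20 genes were lower in enrichment than in tagged cells, where 3.74% of all genes were called, namely Npat (-0.97, SE 0.21), Casp8ap2 (-0.51, SE 0.14) and Lsm11 (-0.49, SE 0.14). None of the 20 was called for Trim71-dependent enrichment in experiment 2. These are themselves polyadenylated mRNAs.

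Replication-independent histones, listed here with H2ax, mostly have mRNAs with poly(A) tails, and counts per gene do not separate forms without a tail. Of 11 such genes 1 was higher and 8 were lower for tag-specific enrichment in experiment 1 (median -0.86), where 28.1% of all genes were higher and 28.8% lower. In experiment 2, 0 were higher and 5 lower (median -0.29), where 18.9% of all genes were higher and 8.77% lower. H2az1 was at -1.02 (SE 0.19) and -0.41 (SE 0.09), and the linker histone gene H1f10 at -0.90 (SE 0.20) and -0.31 (SE 0.11), opposite in sign to H1f2. H2az1 had a median of 532 CPM over the 9 input libraries of experiment 1.

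Of 10 RNAs listed as lacking a poly(A) tail, 4 were among the rows. Counts per gene do not separate forms of these RNAs, such as Neat1, with and without a tail. Malat1, a nuclear RNA, was at -1.33 (SE 0.16) and Neat1 at -0.71 (SE 0.16) for tag-specific enrichment in experiment 1, and none of the 4 was called in experiment 2. In input of experiment 2, Malat1 (-0.27, SE 0.08) and Neat1 (-1.16, SE 0.11) fell in Trim71KO against tagged cells. The median of the 4 RNAs there was 0.04 and the highest value 0.53, and 0 were called higher. The 4 RNAs summed to 236 to 243 CPM in tagged and 162 to 167 CPM in Trim71KO input. In Ago2KO input Neat1 was higher than in tagged input (0.57, SE 0.10). In experiment 1 Neat1 fell in Trim71KO input (-0.31, SE 0.11), and Rmrp and Rpph1 rose from under 2 CPM. Of 10 histone chaperone genes 2 were higher and 4 lower for tag-specific enrichment in experiment 1, where 56.9% of all genes were called, and 3 were higher and 2 lower in experiment 2, where 27.7% were.

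Cell cycle genes moved in Trim71KO input of experiment 1. Of 17 S phase genes 0 were higher and 9 lower (median -0.24), and of 14 genes of G2 and M phase 1 was higher and 6 were lower (median -0.25), where 34.0% of all genes were called. Ccne1, a cyclin of S phase entry, fell by 0.98 (SE 0.10), and Slbp, the stem-loop binding protein, fell by 0.59 (SE 0.09). In tagged against untagged input of experiment 1, 2 S phase genes were higher and 0 of the G2 and M phase genes were called, where 10.6% of all genes were. In experiment 2, Trim71KO against tagged input gave 1 S phase gene and 1 G2 and M phase gene, both lower, where 27.2% of all genes were called. Ago2KO against tagged input gave 2 S phase genes, both higher, where 6.96% of all genes were called. Trim71KO against Ago2KO input gave 6 S phase genes lower and 2 G2 and M phase genes higher, where 28.4% of all genes were called, and tagged against untagged input gave 1 G2 and M phase gene, lower. Their part in the histone values was not tested.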

How the data were processed

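Gene counts of 42 libraries were analysed, 18 from experiment 1 and 24 from experiment 2, each of the 14 groups with 3. Per the file headers, the authors deposited raw counts per gene, RPKM values and gene lengths in a column named for QuasR. The submitters' processing notes name bcl2fastq 2.20, STAR 2.7.3a and the build GRCm38 (mm10). The annotation and the treatment of reads with several matches are not given in the sources used here, so counts of near-identical histone copies are uncertain. Per the labels' protocols the libraries are stranded total RNA. The deposited RPKM values, per length and depth by the authors, were not tested.

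All groups of an experiment were fitted together with edgeR 4.0.16 (R 4.3.3, limma 3.58.1; TMM factors, filterByExpr with a minimum count of 10, quasi-likelihood test). P-values were adjusted by Benjamini-Hochberg over all genes tested, two-sided, and called under 0.05. Enrichment is the difference between 2 genotypes in log2 IP over input. Both experiments were fitted together to test differences between them. Intervals cover 95%, and a group with at most 3 counts in every library was set to that floor where a fold was taken from group means. The scripts were tested on simulated data. Alternatives were RLE size factors, library size alone, DESeq2 1.42.0, no filter, only the groups compared, replicate blocks and leaving out each library.

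The histone genes and the lists were chosen with earlier results of these data known. Named were the highest gene of each class per kilobase, up to 5 called genes in each direction with a mean log2 CPM of at least 2 and groups that do not overlap, genes called alike in both experiments, up to 3 genes of each list in each direction, cell type markers, Tnrc6a, Trim71 and Ago2. Replicate numbers were not taken to pair samples, since in no pair of groups did the deviations of all same-numbered libraries correlate above the threshold used for pairing. Tagged and Trim71KO libraries of experiment 2 came just under it. Their correlations were 0.098, 0.174 and 0.154 in input, where the highest between different numbers was 0.037. In the IP they were 0.213, 0.096 and 0.198, against 0.018. Tagged and Ago2KO libraries gave 0.118, 0.027 and 0.127 in input, against -0.003, and 0.416, 0.039 and 0.260 in the IP, against 0.195. Trim71KO and Ago2KO input gave 0.131, 0.011 and 0.129, against 0.025. A shared replicate batch is thus not excluded, and fits with replicate blocks are given below.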

Additional observations from a re-analysis of the deposited data

Results flagged for a closer look

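These results were singled out because a test of the difference between 2 groups of cells or 2 experiments passed (edgeR quasi-likelihood, adjusted p under 0.05). Between the knockouts of experiment 2, the enrichment of H1f2 was higher in Trim71KO than in Ago2KO cells by 1.33 on the log2 scale. In input RNA, Trim71KO minus Ago2KO was -0.38 for H1f2, -2.15 for H4c11, -1.14 for H2bc21 and -0.68 for H3c14, and 0.76 for H2bc24 and 0.54 for H2bc23. Of these input calls, those of H2bc21 and H2bc24 were kept under every setting run.

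Between experiments, the tag-specific enrichment in experiment 1 minus that in experiment 2 was -3.04 for H2ac11, -2.22 for H2bc22, -1.54 for H2bc24 and -1.43 for H2bc12. The input change of Trim71KO against tagged cells in experiment 1 minus that in experiment 2 was 1.73 for H1f2, 2.21 for H2ac18, 1.91 for H3c14, 1.24 for H2bc21 and 0.61 for H2bc4. The experiments differ in every library, so experiment and any handling that went with it cannot be told apart.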

How the results depend on the processing

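Of 47 gene results that passed the test, 25 kept their call and direction under every alternative run. Over all 793 fits of these 47 results, 644 kept the call, 149 lost it and 0 turned its direction. H1f2 was kept throughout for tag-specific enrichment in both experiments, Ago2-dependent enrichment and Trim71KO input in both experiments.

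The number of histone genes called moved as follows. With RLE size factors and with DESeq2, 1 gene was called in tagged against untagged input of experiment 1 instead of 0. Trim71-dependent enrichment in experiment 2 gave 0 instead of 1 with RLE size factors, with no filter and with only the groups compared. Ago2-dependent enrichment gave 1 instead of 2 with library size alone and with only the groups compared. DESeq2 gave 2 instead of 1 for the enrichment in Trim71KO against Ago2KO cells, and the fit of only the groups compared gave 4 instead of 2 for Ago2KO input. The cause was not tested.

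Leaving out 1 library at a time gave 8 to 12 (experiment 1) and 1 to 2 genes (experiment 2) for tag-specific enrichment. For Trim71-dependent enrichment the ranges were 0 to 0 and 0 to 1. Ago2-dependent enrichment ranged from 1 to 2, and Trim71KO against Ago2KO enrichment from 1 to 2. Input comparisons ranged from 0 to 1 and 1 to 2 for tagged cells, 1 to 2 and 4 to 7 for Trim71KO, 1 to 3 for Ago2KO and 3 to 6 for Trim71KO against Ago2KO. The differences between experiments ranged from 2 to 5 for tag-specific enrichment, 0 to 1 for Trim71-dependent enrichment and 4 to 5 for Trim71KO input. Values that were not called turned sign for H1f2 in tagged against untagged input of experiment 1 (-0.031 to 0.39, lowest without replicate 2 of tagged input) and for H2bc4 in Trim71KO against Ago2KO input (-0.0049 to 0.20, lowest without replicate 3 of Ago2KO input).

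With the replicate number as a block, tag-specific enrichment gave 10 genes in experiment 1 and 2 in experiment 2, Ago2KO input 3 and Trim71KO input 2 and 7. With the lysate as a block the tag-specific counts were 8 and 2.

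Library size alone moved the median over all genes from -0.03 to -0.24 for tag-specific enrichment in experiment 2, where the share of calls that were higher moved from 68.4% to 36.5%. That share moved from 49.6% to 34.6% for Trim71KO input of experiment 2, from 9.25% to 26.1% for Ago2-dependent enrichment, from 63.0% to 51.1% for Ago2KO input, from 53.9% to 35.3% for tagged input of experiment 1, and from 7.25% and 50.5% to 24.6% and 75.7% for Trim71-dependent enrichment in experiments 1 and 2 (21.2% with DESeq2 and 38.6% with RLE size factors). For the differences between experiments it moved from 60.9% to 78.6% (tag-specific enrichment, median from 0.05 to 0.19) and from 46.4% to 68.8% (Trim71KO input, median from 0.01 to 0.12). The median histone gene had under 1 CPM, so changes in most of them were not detectable at this depth unless they were large.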
